A study of Mus musculus with 9 samples.

Results

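The collagen and laminin genes of the mouse form the protein scaffold of the extracellular matrix. They were chosen by name, as probe sets that name a single gene whose symbol reads Col, a number, a and a number, or Lama, Lamb or Lamc and a number. The rule found 54 genes of the 19938 genes on the array, 44 collagen chains and 10 laminin chains. Their values come from total RNA of mouse brain, given as cortex in the series description, on 1 Affymetrix gene array for each of 9 samples labelled as biological replicates. The APP-amylin group held 3 5xFAD mice that received human amylin, a hormone of the pancreatic beta cell, by intraperitoneal injection. The APP-PBS group held 3 5xFAD mice that received phosphate-buffered saline (PBS), and the WT group held 3 B6SJLF1/J wild-type mice that also received PBS. All mice were about 5 months old, and injections were daily for 10 weeks in every group. The 5xFAD line carries mutant human APP under the Thy1 promoter, which is active in neurons. Sex is not given in the labels.

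Collagens are triple helices of alpha chains. Fibrillar collagens build the tensile fibres of meninges and large vessels, and fibril-associated collagens decorate them. Collagen IV forms a network which, together with laminins (trimers of an alpha, a beta and a gamma chain), makes the basement membrane around brain vessels and under the pia. Some collagens are made by neurons: Col25a1 encodes a membrane collagen whose shed part is found in amyloid plaques, and the alpha 1 chain of collagen VI has been reported to rise in neurons of APP transgenic mice. By structure the 54 genes were 11 fibrillar, 9 fibril-associated, 11 beaded, network-forming or other, 4 transmembrane and 9 basement membrane collagens, and 10 laminin chains. A separate list of collagens described in neurons held 5 of these and not Col6a1: Col11a1, Col19a1, Col23a1, Col24a1 and Col25a1. Col21a1 was not analysed here.

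Most of these genes differed little between the groups. The threshold for a change was an adjusted p under 0.05 in limma, with the Benjamini-Hochberg adjustment taken over all 19938 genes. In APP-PBS against WT mice 2 of the 54 passed (3.70%): Col6a1 rose by 0.30 and Lamb1 fell by 0.33 on the log2 scale. Of all genes, 8.58% passed in that comparison, 3.66% higher and 4.92% lower. These were also the only members with an unadjusted p under 0.05 there, which 21.2% of all genes had. In APP-amylin against WT mice 0 of the 54 passed in limma, while 5.21% of all genes did, 2.35% higher and 2.86% lower. An unadjusted p under 0.05 was found for 3 of the 54 (Col6a1, Lamb1 and Col20a1) and for 19.2% of all genes. In APP-amylin against APP-PBS mice 0 passed in limma, as did 0.00502% of all genes. Col14a1 alone of the 54 had an unadjusted p under 0.05 there, beside 6.9% of all genes. The median difference of the 54 genes was -0.03 log2 in APP-PBS against WT, -0.08 in APP-amylin against WT and -0.05 in APP-amylin against APP-PBS. Over all genes the medians were -0.01, -0.01 and 0.00064 in those comparisons. The comparisons with WT share the WT arrays, and each 5xFAD group also enters more than 1 comparison.

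The differences were small, also for the genes that passed. For each of the 54 genes and each of the 3 comparisons, the 95% confidence interval of the difference from the fit lay within a 1.5-fold change either way. The widest reached 0.49 log2 below 0, for Lamb1 in APP-PBS against WT. These intervals are not adjusted for the number of genes. The signals were low: 39 of the 54 probe sets had a mean below the median of all genes, 6.43 log2, and the deposited table holds no detection call. How far a signal near background compresses a change was not tested. In tissue RNA, fewer cells of a type and less RNA per cell cannot be told apart.

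**Figure D1:**
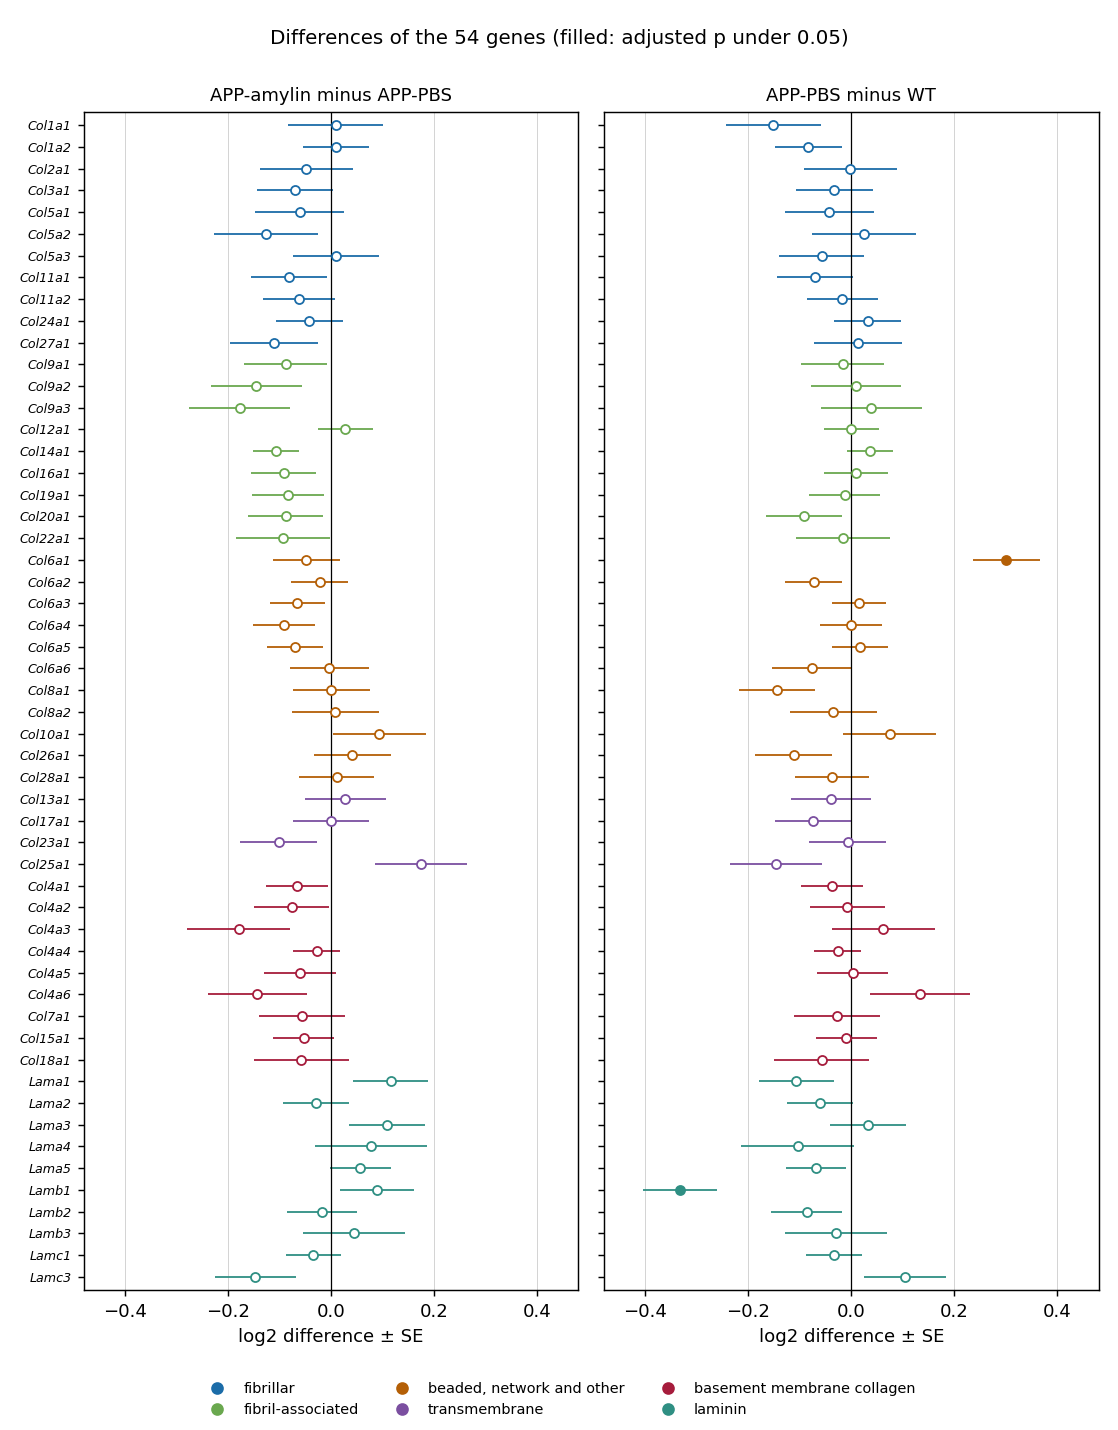
Log2 difference of each of the 54 genes (points) with its standard error (bars) for APP-amylin minus APP-PBS (left) and APP-PBS minus WT (right), coloured by structural class. Filled points have an adjusted p under 0.05. Col6a1 at 0.30 and Lamb1 at -0.33 in the right panel are the filled points.

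One array stood furthest apart for these genes. APP-amylin replicate 3 held the lowest of the 9 values in 37 of the 54 genes (68.5%). The same array was lowest in 19.0% of all genes, and in 26.1% of the 8122 genes whose mean lay in the range of the 54. It was lowest in 33 of 44 collagens and in 4 of 10 laminins. The mean over the 54 genes was 6.07, 5.99 and 5.85 log2 on APP-amylin arrays 1, 2 and 3. It was 5.999, 6.024 and 5.999 on the APP-PBS arrays and 6.04, 6.03 and 6.02 on the WT arrays. The median SD over these genes was 0.13 in the APP-amylin group, against 0.05 in APP-PBS and 0.04 in WT. Over all genes it was 0.09 in APP-amylin, 0.07 in APP-PBS and 0.06 in WT. APP-amylin replicate 1 held the highest of the 9 values in 19 of the 54 genes (35.2%), and in 20.3% of all genes.

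The family leaned lower under amylin with all arrays, and no longer did so when that array was left out. The array was singled out because it was lowest in most of these genes. A rise of the APP-amylin means without it was therefore fixed in advance. With all arrays 47 of the 54 genes had a lower mean in APP-amylin than in WT mice, and 36 a lower mean than in APP-PBS mice. Without APP-amylin replicate 3 the counts were 26 and 20 of 54, with 1 gene equal in each. The median differences were then 0.00017 and 0.01 log2. Across the alternatives run, these medians ran from -0.13 to 0.00017 and from -0.09 to 0.01 log2. Over all genes 54.1% had a lower mean in APP-amylin than in WT mice and 49.6% a lower mean than in APP-PBS mice. Without that array these shares of all genes were 48.5% and 43.9%, with medians of 0.0031 and 0.01 log2. In the matrix lists, replicate 3 was lowest in 8 of 29 genes of collagen synthesis and 7 of 23 basement membrane partners. It was lowest in 4 of 21 receptors, 5 of 28 proteases and inhibitors and 3 of 17 other interstitial matrix genes. Among markers of vessels and meninges the counts were 2 of 15 endothelial, 1 of 15 pericyte and smooth muscle and 2 of 16 fibroblast and meningeal.

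**Figure D2:**
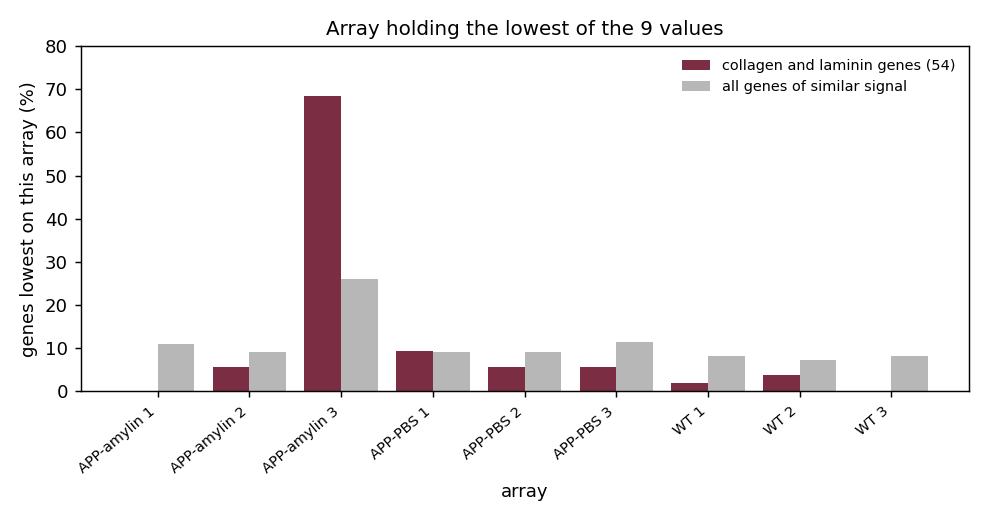
Percentage of genes (vertical axis) whose lowest value of 9 fell on each array (horizontal axis), for the 54 collagen and laminin genes (dark bars) and for all genes of similar signal (grey bars). APP-amylin replicate 3 holds 68.5% of the dark and 26.1% of the grey genes.

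Many deposited values of these genes were exactly equal on several arrays. In 39 of the 54 genes (72.2%) at least 2 arrays agreed to within 1e-06 log2. The share was 54.8% of all genes and 60.4% of those in the same range of levels. At least 4 arrays did so in 16 genes (29.6%), against 15.7% of all genes and 16.9% of those in the same range of levels. Col6a5 had the same value on 7 arrays and Col4a1 and Lamb3 on 6. Where all values of a group are equal its SD is 0, and the source of the equal values was not tested.

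The promoters of 3 genes are shown because Col6a1 and Lamb1 are the members that passed, and Col6a2 is the neighbour of Col6a1 that did not. Each sequence gives the 250 bases before an annotated start (for Col6a2, the first listed of several), 5′ to 3′, from RefSeq in the GRCm38.p6 build, and 40 of the 54 genes matched that table. Capitals mark the GC box GGGCGG, the CCAAT box CCAAT and the TATA box TATAAA, each searched on both strands.
Col6a1, chr10:76726045-76726294, minus strand: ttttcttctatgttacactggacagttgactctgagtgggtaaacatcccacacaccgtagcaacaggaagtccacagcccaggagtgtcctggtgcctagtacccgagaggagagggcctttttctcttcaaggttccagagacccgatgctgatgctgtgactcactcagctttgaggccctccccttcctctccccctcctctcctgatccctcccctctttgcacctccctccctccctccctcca
Col6a2, chr10:76623405-76623654, minus strand: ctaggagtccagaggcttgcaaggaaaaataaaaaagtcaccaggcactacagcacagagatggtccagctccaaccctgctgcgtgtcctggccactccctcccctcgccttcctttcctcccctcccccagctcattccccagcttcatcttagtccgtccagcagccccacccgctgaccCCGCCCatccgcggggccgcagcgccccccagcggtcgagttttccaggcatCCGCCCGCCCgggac
Lamb1, chr12:31265043-31265292, plus strand: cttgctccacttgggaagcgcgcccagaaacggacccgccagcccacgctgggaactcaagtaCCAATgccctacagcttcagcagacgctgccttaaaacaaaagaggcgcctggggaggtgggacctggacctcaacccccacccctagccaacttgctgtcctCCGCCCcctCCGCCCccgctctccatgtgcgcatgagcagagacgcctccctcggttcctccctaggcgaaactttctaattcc

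None of these motifs was found in the Col6a1 window, while the Col6a2 window held 3 GC boxes, 2 of them overlapping, and the Lamb1 window 2 GC boxes and 1 CCAAT box. Over all 32851 windows of the table, 32.7% held a GC box, 33.8% a CCAAT box and 12.4% a TATA box. Of the 44 windows of collagen and laminin genes, 24 held a GC box, 14 a CCAAT box and 5 a TATA box. Their median GC content was 59.0%, against 52.4% for all windows. These matches describe letters in a window, and no factor was measured.

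Col6a1 encodes the alpha 1 chain of collagen VI, which assembles with the alpha 2 and alpha 3 chains into beaded microfibrils. It was 7.25, 7.16 and 7.08 log2 in APP-amylin mice, 7.24, 7.12 and 7.28 in APP-PBS mice and 6.98, 6.85 and 6.91 in WT mice. Every 5xFAD array lay above every WT array, and both 5xFAD groups overlapped. APP-PBS averaged 7.21 ± 0.08 against 6.91 ± 0.07 in WT (SD, n = 3 each). The difference was 0.30 ± 0.07 log2 (SE), which is 1.23-fold, with an adjusted p of 0.0209 in limma. APP-amylin averaged 7.16 ± 0.09 (SD, n = 3), 0.25 ± 0.07 (SE) above WT, which did not pass (limma adjusted p = 0.0581). Without APP-amylin replicate 3 that difference was 0.29 (limma adjusted p = 0.0665). The difference between APP-amylin and APP-PBS was -0.05, with a 95% interval from -0.19 to 0.10 (limma adjusted p = 0.896).

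No other chain of collagen VI passed. Col6a2, the next protein-coding gene to Col6a1 on chromosome 10, was 6.47, 6.40 and 6.33 log2 in APP-amylin, 6.38, 6.45 and 6.43 in APP-PBS and 6.55, 6.43 and 6.50 in WT mice, so that all groups overlapped. Col6a3 was 5.91, 5.91 and 5.76 in APP-amylin, 5.91, 5.96 and 5.91 in APP-PBS and 5.93, 5.91 and 5.90 in WT mice. Their differences in APP-PBS against WT were -0.07 ± 0.06 and 0.01 ± 0.05 log2 (SE), and neither passed. The value of Col6a1 minus that of Col6a2 on the same array was 0.78, 0.76 and 0.76 in APP-amylin, 0.86, 0.67 and 0.85 in APP-PBS and 0.43, 0.42 and 0.41 in WT mice. This pair was chosen because Col6a1 passed and Col6a2 did not, so the offset restates that call and was not tested. Of the other pairs computed, Col6a1 minus Col6a3 was 1.34, 1.24 and 1.32 in APP-amylin, 1.33, 1.16 and 1.37 in APP-PBS and 1.05, 0.94 and 1.00 in WT mice. The more distant chains Col6a4, Col6a5 and Col6a6 differed by -0.0011, 0.02 and -0.08 in APP-PBS against WT. Col6a5 and Col6a6 had a second, dimmer probe set each, with differences of 0.15 and -0.05 log2.

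Lamb1 encodes the beta 1 chain of laminin, a part of the trimers with the gamma 1 chain. It was 6.92, 7.02 and 6.76 log2 in APP-amylin mice, 6.91, 6.73 and 6.80 in APP-PBS mice and 7.15, 7.15 and 7.13 in WT mice. All 5xFAD arrays lay below all WT arrays, whose values were close together. APP-PBS averaged 6.81 ± 0.09 against 7.14 ± 0.01 in WT (SD, n = 3 each). The difference was -0.33 ± 0.07 log2 (SE), which is 1.26-fold lower, with an adjusted p of 0.0207 in limma. APP-amylin averaged 6.90 ± 0.13 (SD, n = 3) and differed from WT by -0.24 ± 0.07 (SE), which did not pass (limma adjusted p = 0.0917), and by -0.17 without APP-amylin replicate 3 (limma adjusted p = 0.232). Against APP-PBS, APP-amylin differed by 0.09, with a 95% interval from -0.07 to 0.25 (limma adjusted p = 0.831). The beta 2 chain gene Lamb2 and the gamma 1 chain gene Lamc1 differed by -0.09 ± 0.07 and -0.03 ± 0.05 in APP-PBS against WT (SE) and did not pass. On the same array Lamb1 minus Lamb2 was -0.0043, 0.23 and 0.08 in APP-amylin, 0.12, -0.09 and -0.04 in APP-PBS and 0.16, 0.32 and 0.24 in WT mice. Lamb1 minus Lamc1 was -0.33, -0.23 and -0.42 in APP-amylin, -0.33, -0.50 and -0.52 in APP-PBS and -0.23, -0.10 and -0.12 in WT mice. In both pairs the APP-amylin and WT arrays overlapped, and the APP-PBS and WT arrays did not. These pairs too were chosen after the values were seen and were not tested.

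Both calls were lost when single arrays were left out. The adjusted p of Col6a1 in APP-PBS against WT was 0.0772 without WT replicate 2, 0.0719 without WT replicate 3, 0.0649 without APP-PBS replicate 1 and 0.0815 without APP-PBS replicate 3, with a difference from 0.27 to 0.35 over all alternatives. That of Lamb1 was 0.0774, 0.0658 and 0.0652 without WT replicates 1, 2 and 3, and 0.072 and 0.0728 without APP-PBS replicates 2 and 3, with a difference from -0.38 to -0.29 over all alternatives. Col6a1 passed in APP-amylin against WT without APP-PBS replicate 2 (limma adjusted p = 0.0491), with quantile normalization repeated, with arrays centred or weighted, and with dim genes removed (limma adjusted p from 0.0296 to 0.0457).

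**Figure D3:**
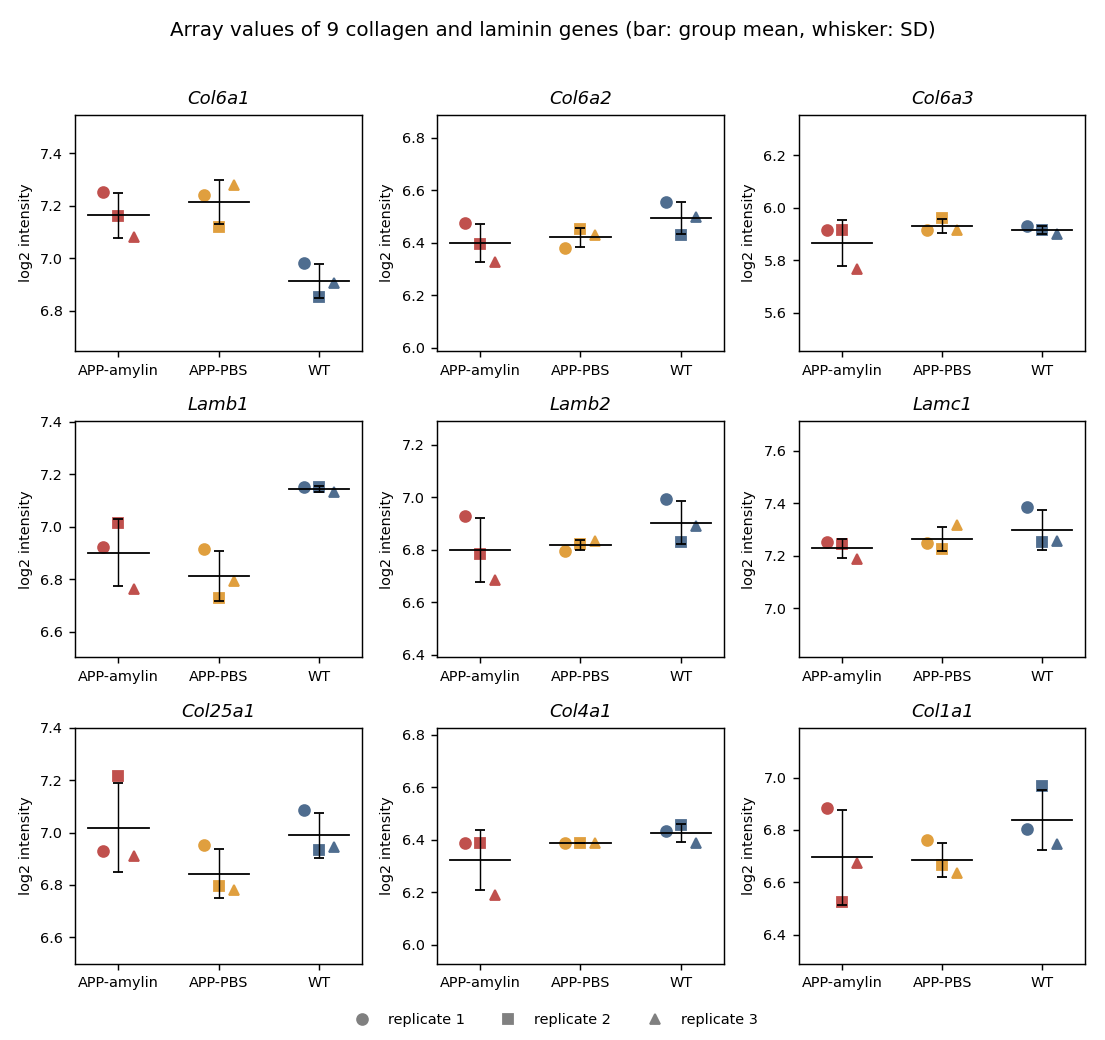
Log2 intensity (vertical axis) of 9 genes on each array, for APP-amylin, APP-PBS and WT (horizontal axis). Marker shapes stand for replicates, bars for group means and whiskers for the SD, and each panel spans the same range. Col6a1 lies higher and Lamb1 lower on all 5xFAD arrays than on all WT arrays, while the groups overlap in the other 7 panels.

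None of the 11 fibrillar collagens passed in any comparison in limma, and none had an unadjusted p under 0.05. Col1a1, the alpha 1 chain of collagen I, was 6.89, 6.53 and 6.68 log2 in APP-amylin, 6.76, 6.66 and 6.64 in APP-PBS and 6.80, 6.97 and 6.75 in WT mice. The groups overlapped, with a difference of -0.15 ± 0.09 (SE) in APP-PBS against WT and an interval from -0.36 to 0.06. Its partner chain Col1a2 differed by -0.08 ± 0.07 and Col3a1, the collagen III chain that shares fibres with collagen I, by -0.03 ± 0.07 (SE). The range over the class was -0.15 to 0.03 log2 in APP-PBS against WT, with a median of -0.03. All 11 had a lower mean in APP-amylin than in WT mice, by 0.01 to 0.15, and replicate 3 was the lowest of 9 arrays in 10 of the 11. Without that array 4 of the 11 had a lower mean.

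None of the 9 basement membrane collagens passed in limma, and none had an unadjusted p under 0.05. Col4a1, which pairs with Col4a2 in the main collagen IV network of vessels, was 6.39, 6.39 and 6.19 log2 in APP-amylin, 6.39, 6.39 and 6.39 in APP-PBS and 6.43, 6.45 and 6.39 in WT mice. Col4a2 was 6.42, 6.54 and 6.22 in APP-amylin, 6.47, 6.47 and 6.47 in APP-PBS and 6.47, 6.49 and 6.46 in WT mice. Their differences in APP-PBS against WT were -0.04 and -0.01, with intervals from -0.17 to 0.10 and from -0.17 to 0.16. The largest difference of the class there was that of Col4a6, 0.13 ± 0.10 log2 (SE), with values of 5.16, 5.41 and 5.16 in APP-PBS against 5.18, 5.16 and 5.00 in WT mice, and it was 0.05 without APP-PBS replicate 2. Col18a1, which yields the fragment endostatin, and Col15a1, its relative, differed by -0.06 and -0.01. All 9 had a lower mean in APP-amylin than in APP-PBS mice, and replicate 3 was the lowest of 9 arrays in 8 of them. Without that array 3 of 9 had a lower mean, Col4a1 had an equal one, and the median difference was 0.01.

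Of the 10 laminin chains, Lamb1 aside, none passed. In APP-PBS against WT mice 8 had a lower mean, beside 38 of the 54 genes and 54% of all genes, and the median was -0.06 log2. Lama1, Lama2, Lama4 and Lama5, alpha chains of laminins of the pia and vessels, differed by -0.11, -0.06, -0.10 and -0.07, and each group overlapped with the others. Lama4, the alpha chain of endothelial basement membranes, was 5.53, 5.24 and 5.52 in APP-amylin, 5.47, 5.11 and 5.47 in APP-PBS and 5.40, 5.49 and 5.47 in WT mice, with replicate 2 low in both 5xFAD groups. Lamc3, a gamma chain, differed by 0.10 ± 0.08 in APP-PBS against WT and by -0.15 ± 0.08 in APP-amylin against APP-PBS (SE), and the second of these was -0.09 without APP-amylin replicate 3. A higher mean in APP-amylin than in APP-PBS mice was found for 6 of the 10, beside 12 of the 44 collagens and 10034 of all 19938 genes. Among the 6 were Lama1 by 0.12 and Lama3 by 0.11. Without APP-amylin replicate 3 the counts were 7 of 10 laminins and 26 of 44 collagens, while 43.9% of all genes had a lower mean.

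None of the 5 collagens on the list of genes described in neurons passed in limma, and Col6a1 is not on that list. Col25a1, the plaque-associated membrane collagen, was 6.93, 7.21 and 6.91 log2 in APP-amylin, 6.95, 6.80 and 6.78 in APP-PBS and 7.09, 6.93 and 6.95 in WT mice. APP-PBS was 0.15 ± 0.09 (SE) below WT (limma adjusted p = 0.416). APP-amylin was 0.18 ± 0.09 (SE) above APP-PBS (limma adjusted p = 0.757), the groups overlapped, and replicate 2 was the high array, without which the difference was 0.08. Its interval in APP-PBS against WT ran from -0.35 to 0.05. Col23a1, another membrane collagen, and Col19a1, a fibril-associated collagen made by interneurons, differed by -0.01 each in APP-PBS against WT. Col11a1 and Col24a1, the fibrillar members of the list, differed by -0.07 and 0.03. In APP-amylin against WT mice Col11a1 differed by -0.15 ± 0.07 (SE, limma adjusted p = 0.302), with replicate 3 lowest at 5.60 and a difference of -0.07 without it.

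Among the fibril-associated and remaining collagens, 3 more came nearest to a difference. Col8a1, a short-chain collagen of vessel walls, was 6.09, 6.02 and 5.91 in APP-amylin, 6.03, 6.08 and 5.90 in APP-PBS and 6.26, 6.09 and 6.09 in WT mice. APP-PBS lay below WT without overlap, by 0.14 ± 0.07 (SE, limma adjusted p = 0.317). Col14a1, which binds fibrils, was 5.48, 5.48 and 5.40 in APP-amylin, 5.59, 5.54 and 5.55 in APP-PBS and 5.52, 5.52 and 5.52 in WT mice. All its APP-amylin arrays were below, and all its APP-PBS arrays above, the WT arrays, whose values were exactly equal (SD 0). Its differences were at most 0.11 log2 (limma adjusted p = 0.714 for APP-amylin against APP-PBS). Col20a1 was 5.80, 5.58 and 5.65 in APP-amylin, 5.80, 5.85 and 5.65 in APP-PBS and 5.91, 5.87 and 5.80 in WT mice, and differed by -0.18 ± 0.07 in APP-amylin against WT (SE, limma adjusted p = 0.215). The collagen IX genes Col9a1, Col9a2 and Col9a3 were lowest on APP-amylin replicate 3, at 5.30, 6.45 and 6.57. Groups did not overlap in 4 of the 54 genes in APP-PBS against WT (26.8% of all genes), in 3 in APP-amylin against WT (23.1%) and in 1 in APP-amylin against APP-PBS (9.3%).

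**Figure D4:**
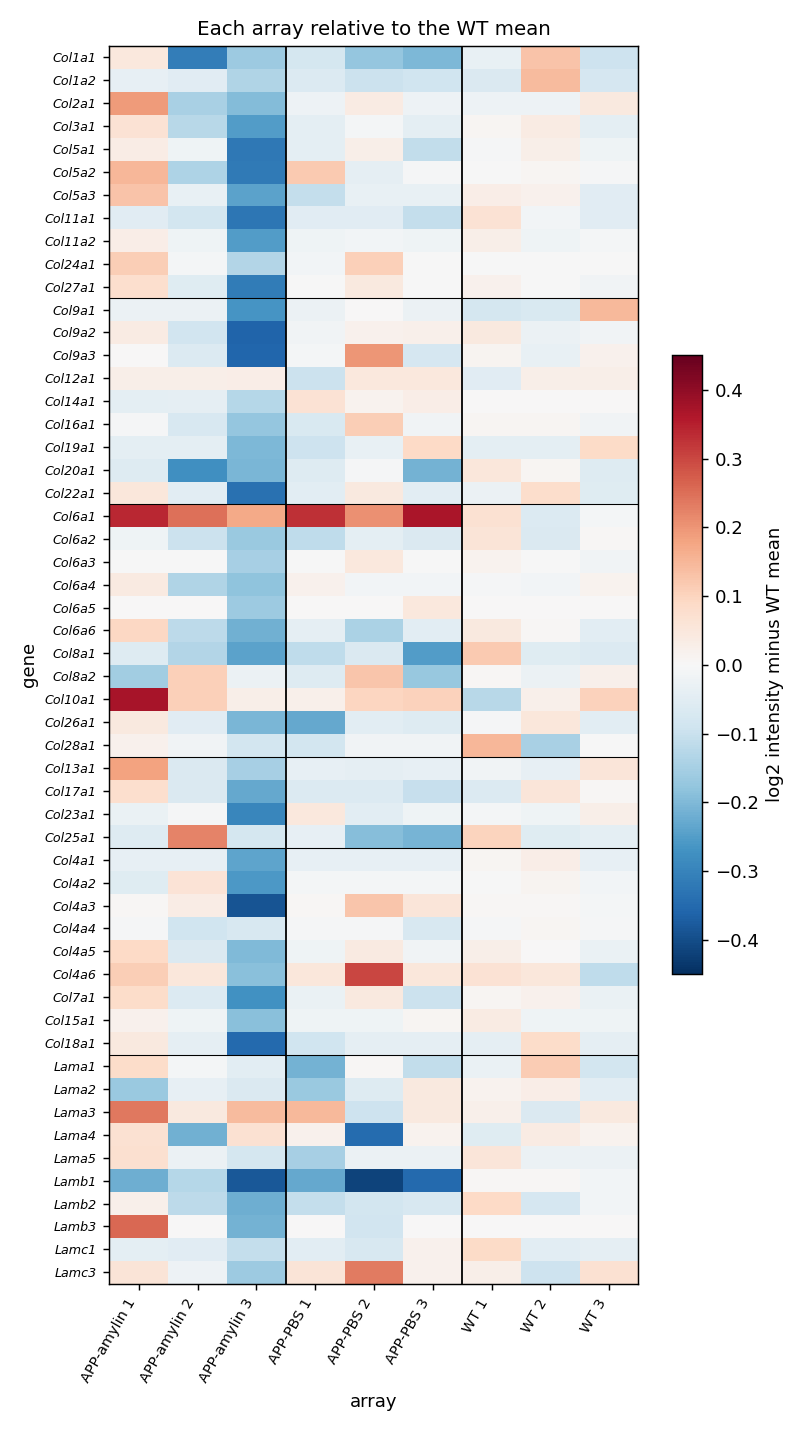
Log2 intensity of the 54 genes (rows, grouped by class from fibrillar at the top to laminin at the bottom) on each array (columns) minus the mean of the WT arrays of that gene. Col6a1 is the red row and Lamb1 the blue row across the 5xFAD arrays, and the APP-amylin 3 column is blue in most collagen rows.

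Genes that build, bind or cut the collagen and laminin scaffold were taken from lists of the same pathway. Of 29 genes of collagen synthesis and crosslinking 2 rose and 0 fell in APP-PBS against WT mice (6.9%, beside 8.58% of all genes), with a median of -0.02 log2: Adamts3, a procollagen N-proteinase, rose by 0.49 ± 0.08 and the crosslinking enzyme Lox by 0.56 ± 0.15 (SE). Adamts3 also rose in APP-amylin against WT, by 0.55 ± 0.08 (SE, limma adjusted p = 0.00482). Of 23 basement membrane partners 1 rose and 1 fell (8.7%, near the share of all genes): Efemp1, a fibulin, rose by 0.39 ± 0.08, and Fn1, fibronectin, fell by 0.30 on the log2 scale. In APP-amylin against WT 0 of the 23 passed, beside 5.21% of all genes. An unadjusted p under 0.05 in limma was found for 4 of the 23, beside 19.2% of all genes. Of 17 other interstitial matrix genes 2 rose, Postn (periostin) by 0.70 ± 0.10 and Aspn by 0.44 ± 0.11, and Dcn (decorin) fell by 1.03 on the log2 scale (17.6% of the list, beside 8.58% of all genes). APP-amylin against WT gave 1 higher and 3 lower of the 17 (23.5%, beside 5.21% of all genes). There Postn rose by 0.78 ± 0.10 (SE), Dcn fell by 1.08, Prelp by 0.39 and Mfap4, a microfibril protein, by 0.25. Decorin binds collagen I fibrils, and it stands on the fibroblast marker list too.

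Of 21 measured receptors of collagens and laminins 5 rose and 1 fell in APP-PBS against WT mice (28.6%, beside 8.58% of all genes), with a median of -0.05 log2. Lair1, an inhibitory collagen receptor of leukocytes, averaged 7.10 ± 0.32 in APP-PBS against 5.93 ± 0.11 in WT (SD, n = 3 each), a rise of 1.17 ± 0.15 (SE, limma adjusted p = 0.00151). Itga1, whose protein pairs with integrin beta 1 to bind collagen, rose by 0.42 ± 0.06, and the lectin Lgals3 by 0.44 ± 0.07 (SE). Itga3, an alpha chain of laminin receptors, fell by 0.54. The other members that rose, Itgb1 and Itga6, which together form a laminin receptor, did so by 0.32 ± 0.06 and 0.46 ± 0.09 (SE). In APP-amylin against WT 1 rose and 2 fell (14.3%, beside 5.21% of all genes): Lair1 rose by 0.97 ± 0.15 (SE), and Itga7 and Itga3 fell by 0.31 and 0.49. In APP-amylin against APP-PBS none of the 21 passed in limma, and 4 had an unadjusted p under 0.05, beside 6.9% of all genes. The nearest was Itga1 at -0.41 ± 0.06 (SE, limma adjusted p = 0.209). Lair1 and Lgals3 are also genes of microglia and macrophages.

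Of 28 matrix proteases and inhibitors 3 rose and 3 fell in APP-PBS against WT (21.4%, beside 8.58% of all genes), with a median of 0.04 log2. The microglial cathepsin gene Ctss rose by 1.80 ± 0.15, the cathepsin gene Ctsl by 0.63 ± 0.10 and Plau, a plasminogen activator, by 0.79 ± 0.15 (SE). Mmp14, a membrane collagenase, fell by 0.42. In APP-amylin against WT 2 of the 28 passed (7.1%, beside 5.21% of all genes), where Ctss rose by 1.60 ± 0.15 (SE) and Mmp17 fell by 0.28.

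Markers of cells and brain regions were read on the same arrays. Of all genes, 8.58% passed in APP-PBS against WT (21.2% with an unadjusted p under 0.05 in limma) and 5.21% in APP-amylin against WT. Shares near 8.58% in APP-PBS against WT were those of fibroblast and meningeal (6.25%), olfactory bulb (8.33%) and choroid plexus (9.09%) markers. Cortex and oligodendrocyte markers had 10.0% each. The share was 13.3% for endothelial markers. Of 15 pericyte and smooth muscle markers 0 passed in APP-PBS against WT in limma (1 with an unadjusted p under 0.05), and their mean level was 6.18 to 6.35 log2 in APP-amylin, 6.30 to 6.34 in APP-PBS and 6.23 to 6.36 in WT mice. Of 16 fibroblast and meningeal markers 1 fell, Dcn, with mean levels of 6.57 to 6.79 in APP-amylin, 6.63 to 6.84 in APP-PBS and 6.71 to 6.78 in WT mice. Of 15 endothelial markers 2 rose, Slco1a4 and Emcn, with mean levels of 6.90 to 6.91 in APP-amylin, 6.91 to 7.02 in APP-PBS and 6.74 to 6.85 in WT mice. Of 12 microglia markers 12 rose, with mean levels of 7.28 to 7.75 in APP-amylin, 7.45 to 8.06 in APP-PBS and 6.16 to 6.21 in WT mice. Regional markers also differed in APP-PBS against WT: 11 of 11 of the striatum rose, 10 of 13 of the hippocampus fell and 11 of 13 of the thalamus fell. Striatal markers averaged 9.18 to 9.29 in APP-amylin, 9.16 to 9.43 in APP-PBS and 7.75 to 8.03 in WT mice. The 10 measured cortex markers averaged 8.38 to 8.40 in APP-amylin, 8.23 to 8.53 in APP-PBS and 8.34 to 8.49 in WT mice. Olfactory bulb markers averaged 6.31 to 7.29 in APP-amylin, 6.12 to 7.44 in APP-PBS and 5.90 to 6.18 in WT mice, and 1 of 12 rose in APP-PBS against WT. There 7 of the 12 had an unadjusted p under 0.05 in limma, beside 21.2% of all genes, and the median was 0.63 log2. Of 11 choroid plexus markers 1 fell, Otx2, in APP-PBS against WT and in APP-amylin against WT. Of 11 neuron markers 4 fell in APP-PBS against WT, and 1 fell in APP-amylin against WT. Of 10 oligodendrocyte markers 1 fell in APP-PBS against WT, and 5 fell in APP-amylin against WT. Of 10 astrocyte markers 1 rose, Gfap, and 2 fell, Fgfr3 and Aldoc, in APP-PBS against WT, with a median of -0.03 log2. In APP-amylin against WT 1 rose, Gfap, and 0 fell. The rise of Gfap was 1.63 ± 0.14 in APP-PBS and 1.37 ± 0.14 in APP-amylin against WT (SE). Without a detection call no marker could be said to be absent. The part of these glial, neuronal and regional markers in the differences of Col6a1, Lamb1, the receptors and the proteases was not tested. Array medians lay between 5.71 and 5.79 log2.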

How the data were processed

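Total RNA of brain was measured on 1 array for each of 9 mice in 3 groups of 3, grouped by sample title. The deposited log2 intensities of 35556 probe sets came from RMA and the R package oligo, per the submitters' processing notes, and RMA corrects background, normalises quantiles and summarises probes. Versions and genome build are not given in the sources used here. Probe sets naming 1 gene (21789) were kept, and of several per gene the brightest on average was used, which left 19938 genes with no filter on low signal. Of the 54 genes, 2 had more than 1 such probe set.

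Comparisons were made in limma 3.58.1 (R 4.3.3), where 1 model held all arrays and a mean for each group (6 residual and 3.53 prior degrees of freedom). The fit was tested on simulated data. P-values set each group difference against the spread between samples within groups, moderated by a prior taken over all genes. The number of samples, 9, limits their precision. A symbol on a list was matched to its present name, then to an older one. All collagen and laminin genes could be named, and from each list the called genes, up to the 4 with the smallest p, or the nearest 2 where none passed; Itgb1 and Itga6 were named after their values were seen. The genes and lists were chosen with earlier results of these data known. Same-numbered arrays of different groups correlated in their deviations from the group means between -0.06 and 0.18, and differently numbered ones between -0.23 and 0.13. The labels do not say that the numbers pair mice, so they were not taken to do so.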

Additional observations from a re-analysis of the deposited data

How the results depend on the processing

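In APP-PBS against WT mice the count of collagen and laminin genes called was 2. It was 0 with a 1.5-fold minimum and ran from 0 to 2 when each array was left out in turn. In APP-amylin against WT the count of 0 became 2 at an adjusted p under 0.1. It became 1, Col6a1, with quantile normalization repeated (adjusted p = 0.0457), with arrays centred on their medians (0.0402), after removing the dimmest 25% (0.0446) or 50% (0.0311) of genes and with array weights (0.0296), and ran from 0 to 1 with each array left out (1 without APP-PBS replicate 2). In APP-amylin against APP-PBS the count stayed 0 under every alternative run. With the replicate block Col6a1 and Lamb1 passed in APP-PBS against WT (adjusted p = 0.0217 and 0.0286), and no call changed in the other comparisons. No count of these genes changed with a trended, robust prior, with the 2 groups fitted alone or with probe sets averaged per gene. Over the alternatives the count over all genes ran from 413 to 2428 in APP-PBS against WT (1710 in the fit reported), from 315 to 1723 in APP-amylin against WT (1039) and from 0 to 7 in APP-amylin against APP-PBS (1). No called gene changed sign. Of genes not called, 23, 26 and 29 changed sign under at least 1 alternative in APP-PBS against WT, APP-amylin against WT and APP-amylin against APP-PBS, all with a difference of at most 0.12. The deposited table gives no background or detection measure, so what signal strength limits was not tested.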
